A study of Mus musculus with 9 samples.

Results

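The proteins that start and extend polypeptide chains on the ribosome were examined at the level of their messages, the 62 genes whose symbols begin with Eif and a digit from 1 to 6, or with Eef1 or Eef2, without the eIF2 kinase genes (Eif2ak) and without symbols marked as pseudogenes. They were 62 of the 49585 genes in the deposited count table. Levels were compared between 3 cell populations sorted from expansion cultures of wild-type mouse haematopoietic stem cells (HSCs), each sequenced as bulk RNA in 3 replicates. The populations were CD201+CD150+CD48−KSL (CD201+CD48− for short), CD201+CD150+CD48+KSL (CD201+CD48+) and CD201−KSL (CD201−), where KSL marks cells with Kit and Sca-1 but no lineage markers. Procr encodes CD201, a receptor for protein C, and CD150 and CD48 belong to the SLAM family of receptors; all of them are used to enrich HSCs. All 3 populations came from CD34−CD150+KSL bone marrow cells of C57BL/6 mice grown in F12 medium with 0.1% polyvinyl alcohol (PVA), and, among other components, the supplements the labels call PS and ITS and SCF (stem cell factor) at 10 ng/ml. The labels give no age of the mice and no freshly isolated cells were compared. The duration is 10 days in the design text and a week in the growth protocol. The gate of the CD201− cells carries CD150+CD48+ in the titles only, so their CD150 and CD48 status is not settled by the labels. Whether replicates came from separate cultures or animals is not stated in the labels, so the p-values cover a spread between samples that may be technical.

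Initiation begins when eIF2, loaded with GTP and the initiator tRNA, joins the small ribosomal subunit together with eIF1, eIF1A, eIF3 and eIF5. The eIF4F complex, made of the cap-binding protein eIF4E, the scaffold eIF4G and the helicase eIF4A, brings the messenger RNA to this subunit, which scans to the start codon before eIF5B lets the large subunit join. Elongation then runs on eEF1A, which delivers aminoacyl-tRNAs, its exchange factors of the eEF1B complex, and eEF2, which moves the ribosome along. Freshly isolated HSCs are known for a low rate of protein synthesis compared with the progenitors they give rise to, held down in part by 4E-binding proteins. Message levels, as measured here, do not report synthesis rates or protein levels.

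Libraries held 3810123 to 7072885 counts. Levels are CPM, the counts of a gene per 1000000 counts of a library, with library size scaled by TMM (trimmed mean of M values), and a gene was tested when it passed a filter on low counts, which kept 11619 genes. Procr averaged 63.2 ± 3.74 CPM in the CD201+CD48− libraries, 26.5 ± 2.16 CPM in the CD201+CD48+ libraries and 3.56 ± 1.07 CPM in the CD201− libraries, and Cd48 averaged 5.86 ± 0.671 CPM in the CD201+CD48− libraries, 83.3 ± 7.22 CPM in the CD201+CD48+ libraries and 125 ± 4.25 CPM in the CD201− libraries (SD, n = 3 each), so both sorted antigens followed the labels. One library stood apart: in CD201− replicate 3, 16.6% of tested genes lay over 1.5-fold from the mean of the other replicates of the group, against 2.78 to 7.73% in the remaining 8 libraries. Results that turn on this library are given with and without it. Summed markers of other cells differed between the groups as well, and their part in the results below was not tested. A sum does not show its single genes, which can differ in direction (edgeR's test, adjusted p under 0.05, CD201+CD48− against CD201− cells). Of 6 tested granulocyte and monocyte markers 3 were lower and 1 higher. Of 4 tested endothelial and stromal markers 3 were higher and 1 lower. For HSC markers 5 of 7 were higher and 1 lower, and for megakaryocyte and platelet markers 7 of 8 were higher and 1 lower. Of 3 erythroid markers 2 were higher and 0 lower, and 2 of 2 mast cell and basophil markers were lower. Among all tested genes 23.9% were lower and 24.2% higher. In CD201+CD48+ against CD201− cells 2 of 8 megakaryocyte and platelet markers were higher and 3 lower. Of 3 erythroid markers 1 was higher and 1 lower there, against 14.8% and 14.3% of all tested genes. Summed HSC markers came to 2229 to 2254 CPM in the CD201+CD48− libraries, 1647 to 1701 CPM in the CD201+CD48+ libraries and 1286 to 1299 CPM in the CD201− libraries, and summed megakaryocyte and platelet markers to 1419 to 1483 CPM in the CD201+CD48− libraries, 381 to 392 CPM in the CD201+CD48+ libraries and 567 to 629 CPM in the CD201− libraries. Mast cell and basophil markers summed to 5.09 to 9.60 CPM in the CD201+CD48− libraries, 3.44 to 4.72 CPM in the CD201+CD48+ libraries and 35.9 to 44.3 CPM in the CD201− libraries. Erythroid markers summed to 201 to 230.0 CPM in the CD201+CD48− libraries, 136 to 149.9 CPM in the CD201+CD48+ libraries and 53.9 to 96.2 CPM in the CD201− libraries. Granulocyte and monocyte markers summed to 213 to 227 CPM in the CD201+CD48− libraries, 191 to 209.6 CPM in the CD201+CD48+ libraries and 161 to 192 CPM in the CD201− libraries, endothelial and stromal markers to 138 to 156 CPM in the CD201+CD48− libraries, 115 to 123 CPM in the CD201+CD48+ libraries and 145 to 164 CPM in the CD201− libraries, and lymphoid markers stayed under 1 CPM in every library.

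Messages of many translation factors were lower in the CD201+ populations than in the CD201− cells. Of the 62 genes 57 passed the filter on low counts. In CD201+CD48− against CD201− cells 35 of the 57 were lower and 1, Eef2k, was higher, and 21 did not pass (edgeR's quasi-likelihood test, Benjamini-Hochberg adjusted p under 0.05 over all genes). In the same comparison 23.9% of all tested genes were lower and 24.2% were higher. In CD201+CD48+ against CD201− cells 27 of the 57 were lower and 0 were higher, against 14.3% of all tested genes lower and 14.8% higher. Between the CD201+ populations 2 of the 57, Eif1ad and Eif2b1, were lower in CD201+CD48− cells and 0 were higher, against 6.31% of all tested genes lower and 9.05% higher. At an unadjusted p under 0.05, edgeR's test counted 1 of the 57 as higher in CD201+CD48+ than in the CD201− cells (Eef2k) and 0 as higher in CD201+CD48− than in CD201+CD48+ cells, and DESeq2 and limma-voom called 0 higher in either. The first pair of comparisons shares the CD201− libraries, so their counts are not independent of each other.

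Most of these differences were small. The median log2 fold change of the 57 genes was −0.36 in CD201+CD48− against CD201− cells, −0.27 in CD201+CD48+ against CD201− cells and −0.11 in CD201+CD48− against CD201+CD48+ cells, while the median over all tested genes was 0.00, 0.00 and −0.01 in the same comparisons. Values ran from −1.11 to 0.34 in CD201+CD48− against CD201− cells, and of the 36 genes that passed there, 11 differed by over 1.5-fold and 1, Eif2s2, by over 2-fold. The group means ran in the order CD201+CD48−, CD201+CD48+, CD201− from low to high for 41 of the 57 genes. The 62 genes together took 2.25 ± 0.02% of the counts in the CD201+CD48− libraries, 2.32 ± 0.03% in the CD201+CD48+ libraries and 2.53 ± 0.05% in the CD201− libraries (SD, n = 3 each), a description with no test. In bulk samples fewer cells that carry a message and less of it per cell cannot be told apart.

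**Figure D1:**
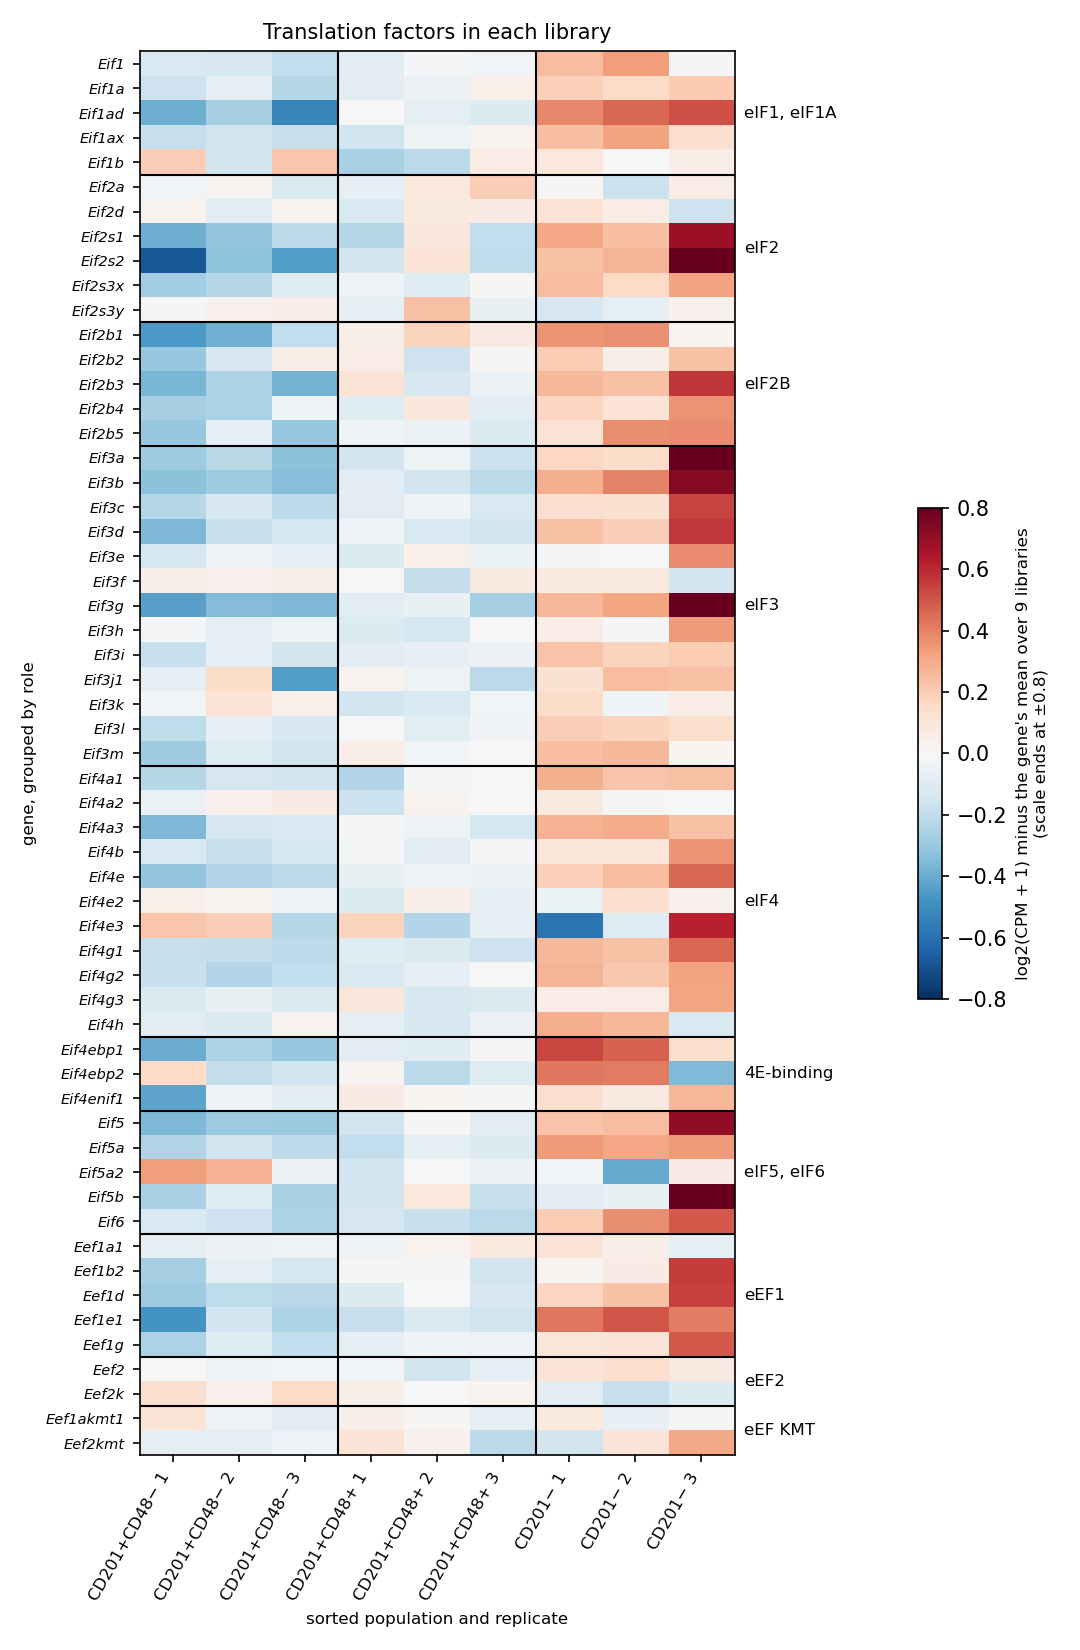
Level of each tested translation factor gene (rows, grouped by role) in each of the 9 libraries (columns, 3 per population), as log2 CPM minus the gene's mean over all libraries. Most rows run from low in the CD201+CD48− libraries on the left to high in the CD201− libraries on the right, and CD201− replicate 3 is the highest library for Eif5b, Eif2s2, Eif3a and Eif3g.

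The scaling sets how many pass. With library sizes alone the median of all tested genes moved to 0.17 in CD201+CD48− against CD201− cells and to 0.13 in CD201+CD48+ against CD201− cells. On that scale 26 of the 57 were lower and 3 higher (Eef2k, Eif2s3y and Eif5a2) in CD201+CD48− against CD201− cells. Of all tested genes 14.5% were lower and 34.2% higher there. In CD201+CD48+ against CD201− cells 15 were then lower and 2 higher (Eef2k and Eif2a). Of all tested genes 7.32% were lower and 23.2% higher there. DNA replication moved with the same comparisons on the TMM scale. There 23.9% of all tested genes were lower in CD201+CD48− against CD201− cells, 14.3% in CD201+CD48+ against CD201− cells and 6.31% in CD201+CD48− against CD201+CD48+ cells. All 14 S phase genes examined, such as Mcm2 and Rrm2, were lower in the CD201+CD48− than in the CD201− cells. Of the 14, 12 were lower in the CD201+CD48+ than in the CD201− cells and 13 in the CD201+CD48− than in CD201+CD48+ cells. Their summed level was 2302 to 2373 CPM in the CD201+CD48− libraries, 3102 to 3222 CPM in the CD201+CD48+ libraries and 3968 to 4405 CPM in the CD201− libraries. Its part in the factor messages was not tested.

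**Figure D2:**
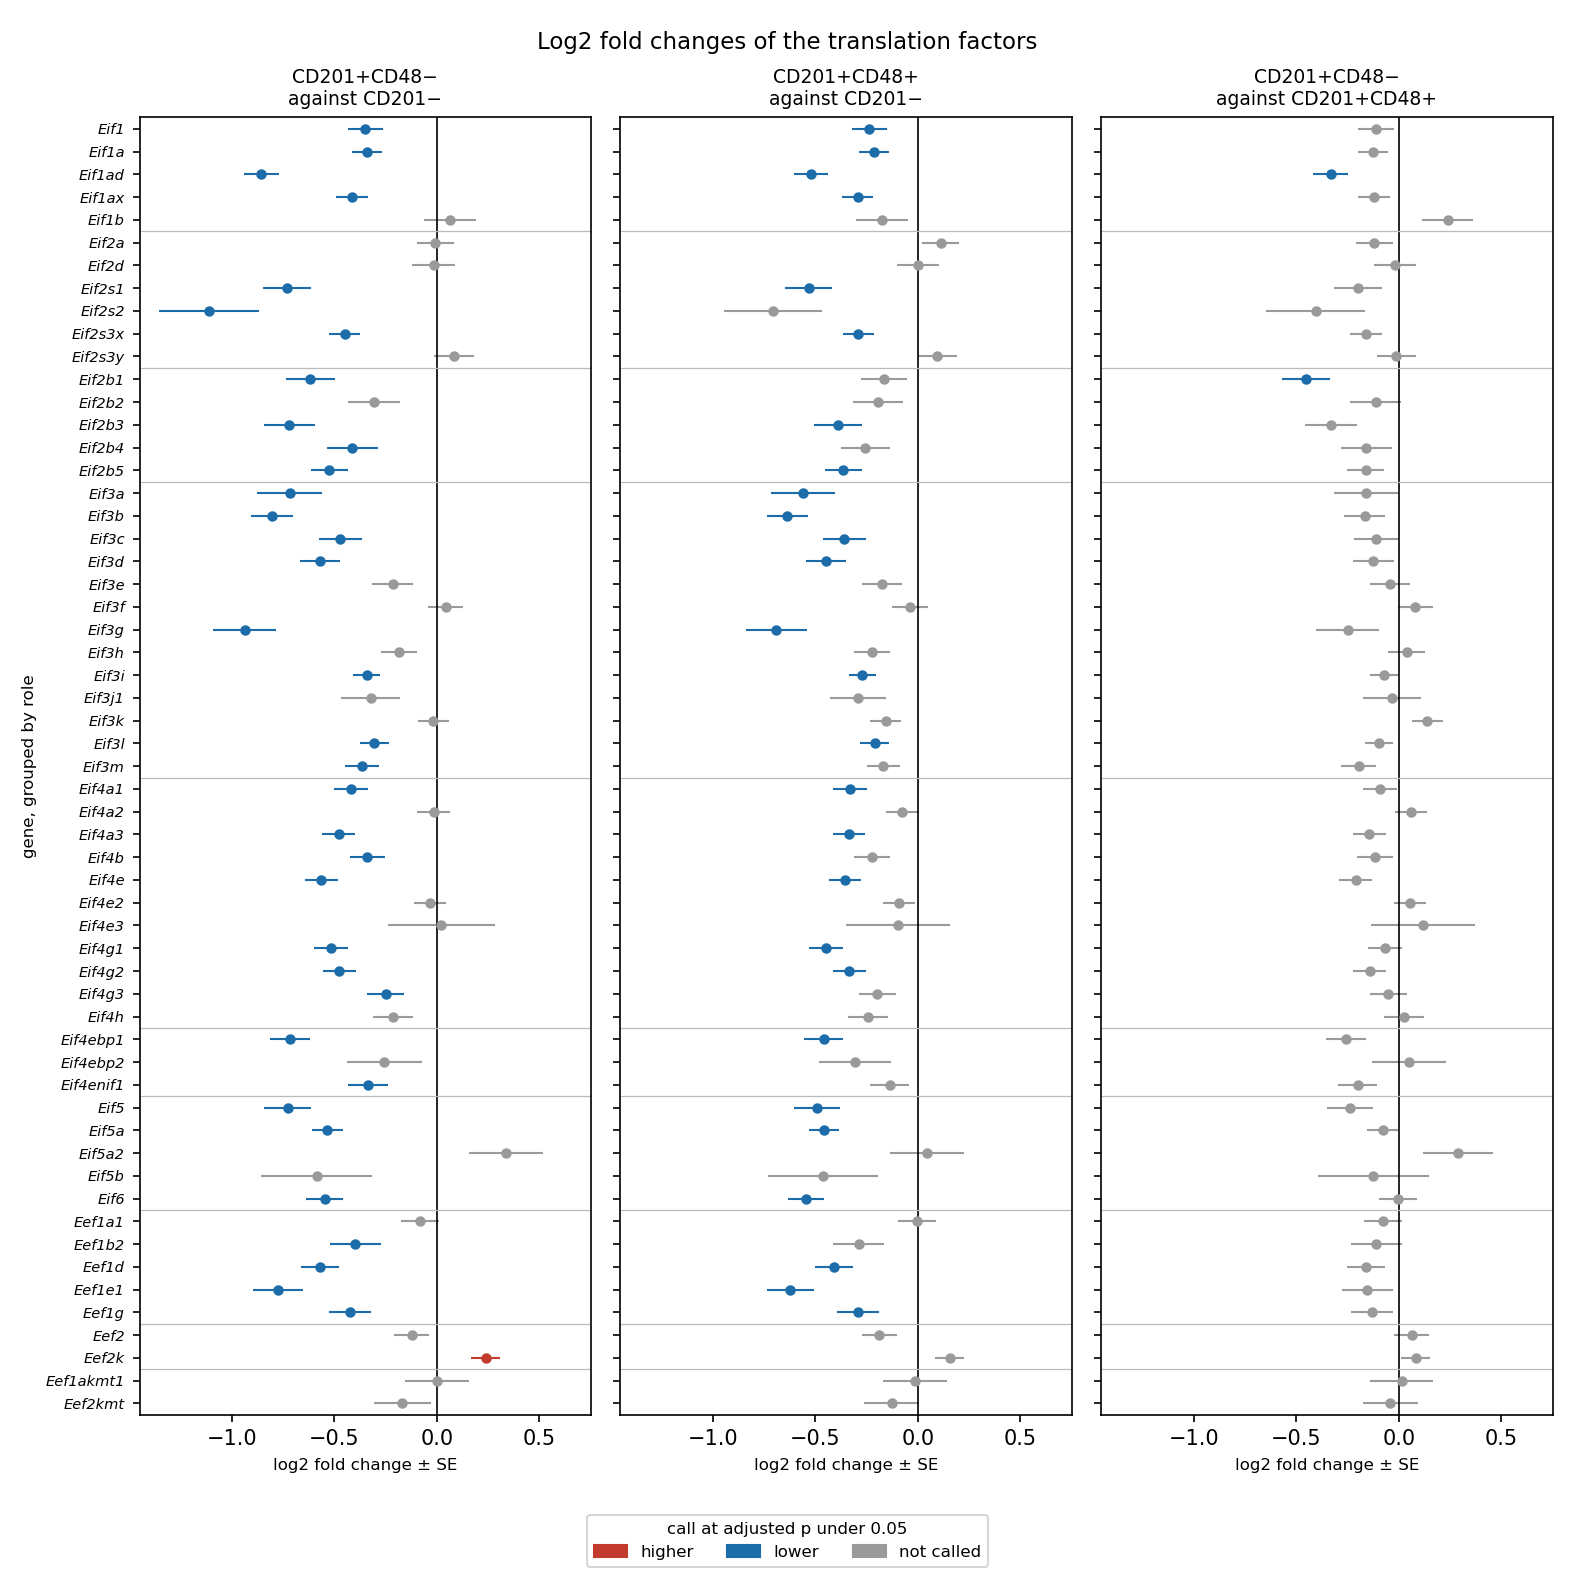
Log2 fold change (points) with its standard error (lines) of the 57 tested genes in the 3 comparisons, grouped by role, with lower genes in blue, higher ones in red and those that did not pass in grey. In the left panel 35 genes are lower and Eef2k alone is higher, and in the right panel only Eif1ad and Eif2b1 pass.

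Among the factors of start codon scanning, 4 of 5 tested genes were lower in the CD201+CD48− than in the CD201− cells and the same number were lower in CD201+CD48+ than in the CD201− cells. They were Eif1 and Eif1a and Eif1ax, which encode eIF1 and eIF1A, and Eif1ad, which encodes a protein with an eIF1A-like domain. Eif1ad (chromosome 19, 5366813 to 5371518, RefSeq on GRCm38.p6, the assembly of mm10, as for all positions here) stood at 56.1, 61.1 and 51.1 CPM in the CD201+CD48− libraries, 73.6, 69.9 and 68.4 CPM in the CD201+CD48+ libraries and 96.5, 102 and 106 CPM in the CD201− libraries. The populations did not overlap in any pairing, and the CD201− libraries were the highest. Its log2 fold change was −0.86 ± 0.09 (adjusted p = 1.17e-06) in CD201+CD48− against CD201− cells, −0.52 ± 0.08 (adjusted p = 0.000266) in CD201+CD48+ against CD201− cells and −0.33 ± 0.09 (adjusted p = 0.0163) in CD201+CD48− against CD201+CD48+ cells (SE; edgeR's quasi-likelihood test, Benjamini-Hochberg, as for every adjusted p). Eif1ad was the only factor gene to pass in all 3, and it overlaps Banf1, so part of its counts may belong to that neighbour. Eif1ax on the X chromosome stood at 145, 148 and 145 CPM in the CD201+CD48− libraries, 147, 159.9 and 168 CPM in the CD201+CD48+ libraries and 195, 206 and 181 CPM in the CD201− libraries. Its CD201− libraries lay above those of both CD201+ populations, which overlapped each other only narrowly. For Eif1ax the log2 fold change was −0.41 ± 0.08 (adjusted p = 0.000383) in CD201+CD48− and −0.29 ± 0.08 (adjusted p = 0.00908) in CD201+CD48+ cells against CD201− cells. The call of Eif1 in CD201+CD48+ against CD201− cells (log2 fold change −0.24 ± 0.09 (adjusted p = 0.0497)) was lost in 13 of 17 alternative fits and that of Eif1a (−0.22 ± 0.07 (adjusted p = 0.0368)) in 11. Without CD201− replicate 3 the values were −0.33 (adjusted p = 9.91e-06) for Eif1 and −0.20 (adjusted p = 0.0259) for Eif1a. With library sizes alone 2 of the 5 were lower in the CD201+CD48− and 1 of 5 in the CD201+CD48+ cells, each against CD201− cells. Eif1b, a second eIF1 gene, averaged 34.7 ± 4.92 CPM in the CD201+CD48− libraries, 29.4 ± 3.72 CPM in the CD201+CD48+ libraries and 33.4 ± 1.03 CPM in the CD201− libraries, and its groups overlapped.

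Of the 4 genes of the eIF2 trimer, which carries the initiator tRNA, Eif2s1, Eif2s2 and Eif2s3x were lower in the CD201+CD48− than in the CD201− cells, and Eif2s1 and Eif2s3x in the CD201+CD48+ than in the CD201− cells. Eif2s2, which encodes the beta subunit (chromosome 2, 154871410 to 154892906), had the lowest log2 fold change of all 57 genes and stood at 171, 219 and 201 CPM in the CD201+CD48− libraries, 248, 297 and 239 CPM in the CD201+CD48+ libraries and 323, 332 and 622 CPM in the CD201− libraries. The populations did not overlap in any pairing, but CD201− replicate 3 was far above the other CD201− libraries. The log2 fold change was −1.11 ± 0.24 (adjusted p = 0.00448) in CD201+CD48− against CD201− cells and −0.71 ± 0.24 (adjusted p = 0.0541), which did not pass, in CD201+CD48+ against CD201− cells. Without CD201− replicate 3 these were −0.74 (adjusted p = 0.000231) and −0.33 (adjusted p = 0.0375). Eif2s1, which encodes the alpha subunit that stress kinases phosphorylate (chromosome 12, 78862072 to 78887010), stood at 159, 168 and 180.4 CPM in the CD201+CD48− libraries, 178, 222 and 182 CPM in the CD201+CD48+ libraries and 259, 247 and 335 CPM in the CD201− libraries. All CD201− libraries were higher than all CD201+ libraries. For Eif2s1 the log2 fold change was −0.73 ± 0.12 (adjusted p = 0.000124) in CD201+CD48− and −0.53 ± 0.11 (adjusted p = 0.00322) in CD201+CD48+ cells against CD201− cells.

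The gamma subunit, which binds GTP and the initiator tRNA, has a gene on each sex chromosome, and only the X-linked gene passed the test. Eif2s3x (chromosome X, 94188709 to 94212651) stood at 148, 153 and 167 CPM in the CD201+CD48− libraries, 174, 168 and 180.0 CPM in the CD201+CD48+ libraries and 213, 200.3 and 225 CPM in the CD201− libraries. All CD201− libraries were the highest. For Eif2s3x the log2 fold change was −0.45 ± 0.08 (adjusted p = 0.000186) in CD201+CD48− and −0.29 ± 0.08 (adjusted p = 0.00958) in CD201+CD48+ cells against CD201− cells. Eif2s3y (chromosome Y, 1010562 to 1049134) stood at 69.6, 71.8 and 72.8 CPM in the CD201+CD48− libraries, 66.5, 82.8 and 67.1 CPM in the CD201+CD48+ libraries and 63.7, 66.5 and 71.7 CPM in the CD201− libraries. Its 3 populations overlapped. For Eif2s3y the log2 fold change was 0.08 ± 0.10 (adjusted p = 0.506) in CD201+CD48− and 0.10 ± 0.10 (adjusted p = 0.484) in CD201+CD48+ cells against CD201− cells. The labels give no sex of the mice. The stretches around their annotated starts are shown because the copies share a product but differ in level, with capitals for the pyrimidine run that begins with C at or next to the start (20 bases before the start, then the start and 9 bases after it; Eif2s3x on the minus strand at chrX:94212642-94212671 and Eif2s3y on the plus strand at chrY:1010575-1010604, RefSeq, GRCm38.p6).
Eif2s3x: ggcggctgccgagcattttcCTTTTCTCTC
Eif2s3y: cgacagcggaggccacagccaCTTCCTTCT
Both hold such a run, and an annotated start is not a mapped one. The genes Eif2a and Eif2d, whose products bring tRNA to the small subunit outside eIF2, gave log2 fold changes of −0.01 ± 0.09 (adjusted p = 0.959) and −0.02 ± 0.10 (adjusted p = 0.917) in CD201+CD48− against CD201− cells, and their groups overlapped.

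The exchange factor eIF2B, which recharges eIF2 with GTP and is the target of the integrated stress response, had 4 of 5 subunit genes lower in the CD201+CD48− than in the CD201− cells and 2 of 5 lower in the CD201+CD48+ than in the CD201− cells. Eif2b1, the alpha subunit of the regulatory part (chromosome 5, 124570214 to 124579131), stood at 27.4, 28.8 and 32.99 CPM in the CD201+CD48− libraries, 39.1, 43.1 and 39.7 CPM in the CD201+CD48+ libraries and 48.9, 49.1 and 38.6 CPM in the CD201− libraries. The CD201+CD48− libraries lay below all others, while the CD201+CD48+ libraries overlapped CD201− replicate 3, the lowest of its group. The log2 fold change was −0.62 ± 0.12 (adjusted p = 0.000567) in CD201+CD48− against CD201− cells, −0.16 ± 0.11 (adjusted p = 0.294) in CD201+CD48+ against CD201− cells and −0.45 ± 0.12 (adjusted p = 0.0165) in CD201+CD48− against CD201+CD48+ cells. Without CD201− replicate 3 the second of these passed, at −0.27 (adjusted p = 0.037). Eif2b3 and Eif2b5, the subunits of the catalytic part, gave log2 fold changes of −0.72 ± 0.13 (adjusted p = 0.000225) and −0.52 ± 0.09 (adjusted p = 0.000217) in CD201+CD48− against CD201− cells and −0.39 ± 0.12 (adjusted p = 0.022) and −0.36 ± 0.09 (adjusted p = 0.00665) in CD201+CD48+ against CD201− cells. The call of Eif2b3 in the second comparison was lost in 5 of 17 alternative fits, among them the one without CD201− replicate 3, at −0.27 (adjusted p = 0.0696). Eif2b4, of the regulatory part, passed only in CD201+CD48− against CD201− cells, at −0.41 ± 0.12 (adjusted p = 0.0125). Eif2b2, its partner there, did not pass in any comparison.

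The eIF3 complex, the largest initiation factor, split by subunit. Of its 13 tested genes 8 were lower in the CD201+CD48− than in the CD201− cells and 7 were lower in the CD201+CD48+ than in the CD201− cells. The 5 genes whose products make up the core that budding yeast also has (Eif3a, Eif3b, Eif3c, Eif3g and Eif3i) were lower in both, with log2 fold changes from −0.94 to −0.34 (median −0.72) in CD201+CD48− against CD201− cells. Of the 7 genes for subunits that budding yeast lacks, 3 were lower in the CD201+CD48− than in the CD201− cells (Eif3d, Eif3l and Eif3m) and Eif3e, Eif3f, Eif3h and Eif3k did not pass (range −0.57 to 0.04, median −0.22). With CD201− replicate 3 left out the core genes ranged from −0.68 to −0.32 (median −0.44) and the others from −0.45 to −0.02 (median −0.08). The core median in CD201+CD48+ against CD201− cells was −0.56, or −0.27 without that library. The calls there of Eif3l and Eif3c were lost in 11 and 4 of 17 alternative fits, while Eif3m passed without that library, at −0.24 (adjusted p = 0.00632). This division was chosen after the values were seen and carries no test. Eif3j1, a loosely bound subunit, did not pass either.

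Eif3g, an RNA-binding core subunit (chromosome 9, 20894349 to 20898590), stood at 113, 121 and 119.6 CPM in the CD201+CD48− libraries, 145, 147 and 127 CPM in the CD201+CD48+ libraries and 184, 191 and 299.8 CPM in the CD201− libraries. All CD201− libraries were above all CD201+ libraries, with CD201− replicate 3 the highest. For Eif3g the log2 fold change was −0.94 ± 0.15 (adjusted p = 0.000259) in CD201+CD48− and −0.69 ± 0.15 (adjusted p = 0.00447) in CD201+CD48+ cells against CD201− cells. Without that library these were −0.68 (adjusted p = 1.12e-12) and −0.43 (adjusted p = 5.67e-07). Eif3b, the scaffold of the core (chromosome 5, 140419305 to 140443358), stood at 336, 347 and 333 CPM in the CD201+CD48− libraries, 398, 379 and 363 CPM in the CD201+CD48+ libraries and 517, 556 and 701 CPM in the CD201− libraries. The groups again did not overlap against CD201− cells. For Eif3b the log2 fold change was −0.80 ± 0.10 (adjusted p = 1.06e-05) in CD201+CD48− and −0.64 ± 0.10 (adjusted p = 0.000234) in CD201+CD48+ cells. Eif3a, the largest subunit (chromosome 19, 60761116 to 60790693), stood at 1341, 1399 and 1305 CPM in the CD201+CD48− libraries, 1473, 1592 and 1452 CPM in the CD201+CD48+ libraries and 1833, 1812 and 3011 CPM in the CD201− libraries. CD201− replicate 3 was far above every other library, and the log2 fold change in CD201+CD48− against CD201− cells was −0.72 ± 0.16 (adjusted p = 0.00193), or −0.44 (adjusted p = 8.06e-10) without it. Eif3f (chromosome 7, 108934415 to 108941942), by contrast, stood at 230.0, 226 and 228 CPM in the CD201+CD48− libraries, 221, 194 and 232 CPM in the CD201+CD48+ libraries and 232, 233 and 199 CPM in the CD201− libraries. Its groups overlapped, and its log2 fold change in CD201+CD48− against CD201− cells was 0.04 ± 0.09 (adjusted p = 0.712). Eif3k stood at 129, 142 and 135 CPM in the CD201+CD48− libraries, 118, 121 and 129 CPM in the CD201+CD48+ libraries and 146, 128 and 137 CPM in the CD201− libraries, also with overlap, and its log2 fold change in CD201+CD48− against CD201− cells was −0.02 ± 0.08 (adjusted p = 0.873).

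**Figure D3:**
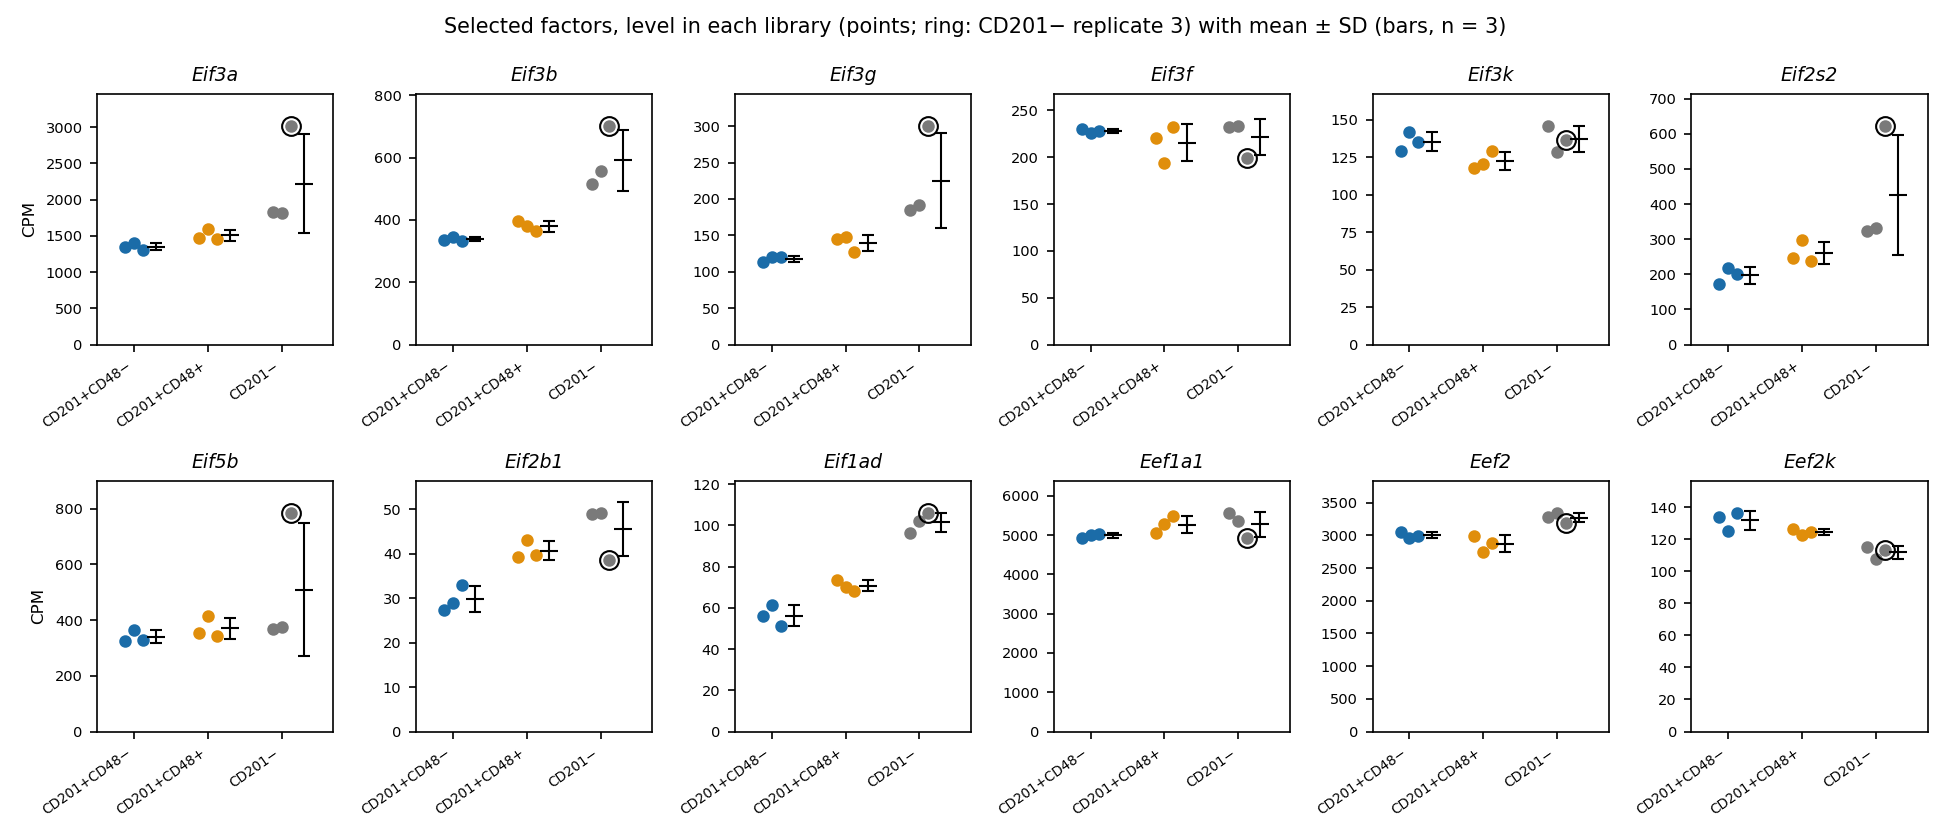
Level of 12 factor genes in each library (points, CPM from 0), with mean and SD of each population (bars, n = 3) and a ring around CD201− replicate 3. The eIF3 core genes Eif3a, Eif3b and Eif3g and the eIF2 gene Eif2s2 are lowest in CD201+CD48− cells, Eif3f and Eif3k overlap between populations, and Eef2k is highest in CD201+CD48− cells on average.

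All 3 genes named for the canonical eIF4F subunits were lower in each CD201+ population than in the CD201− cells. Eif4e, the cap-binding protein (chromosome 3, 138526191 to 138559696), stood at 98.7, 104 and 105 CPM in the CD201+CD48− libraries, 118, 119.8 and 119 CPM in the CD201+CD48+ libraries and 139.9, 146 and 169 CPM in the CD201− libraries. The populations did not overlap. For Eif4e the log2 fold change was −0.56 ± 0.08 (adjusted p = 4.07e-05) in CD201+CD48− and −0.35 ± 0.08 (adjusted p = 0.00379) in CD201+CD48+ cells against CD201− cells. Eif4g1, the scaffold (chromosome 16, 20672720 to 20692883), stood at 730.2, 725 and 717 CPM in the CD201+CD48− libraries, 775, 764 and 739 CPM in the CD201+CD48+ libraries and 992, 975 and 1139 CPM in the CD201− libraries. Its CD201− libraries were the highest. For Eif4g1 the log2 fold change was −0.52 ± 0.08 (adjusted p = 0.00011) in CD201+CD48− and −0.45 ± 0.08 (adjusted p = 0.000958) in CD201+CD48+ cells. Eif4a1, the helicase (chromosome 11, 69666936 to 69672423), stood at 464, 496 and 490.2 CPM in the CD201+CD48− libraries, 462, 539 and 543 CPM in the CD201+CD48+ libraries and 663, 638 and 639.7 CPM in the CD201− libraries. Here the CD201+ populations overlapped each other and neither reached the CD201− libraries. For Eif4a1 the log2 fold change was −0.42 ± 0.08 (adjusted p = 0.000597) in CD201+CD48− and −0.33 ± 0.08 (adjusted p = 0.00726) in CD201+CD48+ cells.

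Across the eIF4 group as a whole 7 of 11 tested genes were lower in the CD201+CD48− than in the CD201− cells and 5 of 11 were lower in CD201+CD48+ than in the CD201− cells. Eif4g2, which encodes an eIF4G-like protein that does not bind eIF4E, gave log2 fold changes of −0.48 ± 0.08 (adjusted p = 0.000176) and −0.34 ± 0.08 (adjusted p = 0.00585) in these comparisons, and Eif4a3, the helicase of the exon junction complex, gave −0.48 ± 0.08 (adjusted p = 0.000155) and −0.34 ± 0.08 (adjusted p = 0.0049). Eif4b, a partner of the helicase, passed only in CD201+CD48− against CD201− cells, at −0.34 ± 0.09 (adjusted p = 0.00464), and so did Eif4g3, the second eIF4G scaffold, at −0.25 ± 0.09 (adjusted p = 0.0323). The call of Eif4g3 was lost in 7 of 17 alternative fits, and its value without CD201− replicate 3 was −0.16 (adjusted p = 0.0204). Eif4a2, Eif4e2, Eif4e3 and Eif4h did not pass in any comparison. Of these, Eif4h, another helicase partner, was lower without CD201− replicate 3, at −0.34 (adjusted p = 1.72e-06) in CD201+CD48− against CD201− cells.

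The 4E-binding proteins hold eIF4E away from the scaffold, and 2 of the 3 tested genes of this group were lower in the CD201+CD48− than in the CD201− cells, as Eif4e was. Eif4ebp1 (chromosome 8, 27260327 to 27275656) stood at 87.7, 97.3 and 93.4 CPM in the CD201+CD48− libraries, 109, 108 and 114 CPM in the CD201+CD48+ libraries and 168, 161 and 128 CPM in the CD201− libraries. Its CD201− libraries were all higher than the others, with replicate 3 the lowest of them. For Eif4ebp1 the log2 fold change was −0.72 ± 0.10 (adjusted p = 2.09e-05) in CD201+CD48− and −0.46 ± 0.09 (adjusted p = 0.00201) in CD201+CD48+ cells against CD201− cells. Eif4ebp2 (chromosome 10, 61428491 to 61452790) stood at 40.8, 31.8 and 32.5 CPM in the CD201+CD48− libraries, 37.1, 31.2 and 33.97 CPM in the CD201+CD48+ libraries and 49.1, 49.1 and 28.3 CPM in the CD201− libraries. CD201− replicate 3 was below every other library while the remaining CD201− libraries were above all, and the log2 fold change in CD201+CD48− against CD201− cells was −0.26 ± 0.18 (adjusted p = 0.265), or −0.47 (adjusted p = 0.000349) without that library. Eif4enif1, which carries eIF4E into the nucleus and into processing bodies, passed only in CD201+CD48− against CD201− cells, at −0.34 ± 0.10 (adjusted p = 0.00934).

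Of the factors that act around subunit joining, 3 of 5 tested genes were lower in each CD201+ population than in the CD201− cells. Eif5, which makes eIF2 hydrolyse its GTP at the start codon (chromosome 12, 111538101 to 111546753), stood at 357, 374 and 372 CPM in the CD201+CD48− libraries, 409.7, 461 and 429 CPM in the CD201+CD48+ libraries and 535, 543 and 749.7 CPM in the CD201− libraries. No CD201+ library reached the CD201− range. For Eif5 the log2 fold change was −0.73 ± 0.11 (adjusted p = 8.59e-05) in CD201+CD48− and −0.49 ± 0.11 (adjusted p = 0.00429) in CD201+CD48+ cells against CD201− cells, and the second was −0.31 (adjusted p = 5.24e-06) without CD201− replicate 3. Eif5a, the factor that carries hypusine and relieves stalled ribosomes (chromosome 11, 69916712 to 69921958), stood at 532, 563 and 544 CPM in the CD201+CD48− libraries, 549, 598 and 583 CPM in the CD201+CD48+ libraries and 798, 779 and 798 CPM in the CD201− libraries. Its CD201− libraries lay close together and above all others. For Eif5a the log2 fold change was −0.54 ± 0.08 (adjusted p = 3.18e-05) in CD201+CD48− and −0.46 ± 0.07 (adjusted p = 0.00035) in CD201+CD48+ cells. Eif6, which keeps free large subunits apart from small ones (chromosome 2, 155819837 to 155826925), stood at 57.9, 56.1 and 52.7 CPM in the CD201+CD48− libraries, 57.4, 55.6 and 54.2 CPM in the CD201+CD48+ libraries and 72.8, 81.98 and 88.98 CPM in the CD201− libraries. The CD201+ populations overlapped each other and both lay below CD201− cells. For Eif6 the log2 fold change was −0.55 ± 0.09 (adjusted p = 0.000156) in CD201+CD48− and −0.55 ± 0.09 (adjusted p = 0.000351) in CD201+CD48+ cells. Eif5b, the GTPase of subunit joining, stood at 326, 366 and 327 CPM in the CD201+CD48− libraries, 353, 414 and 344 CPM in the CD201+CD48+ libraries and 369, 376 and 784 CPM in the CD201− libraries. CD201− replicate 3 was 2.10-fold above the mean of the other CD201− libraries, and Eif5b did not pass in CD201+CD48− against CD201− cells, at −0.58 ± 0.27 (adjusted p = 0.109), or −0.14 (adjusted p = 0.0732) without that library. It gave −0.46 ± 0.27 (adjusted p = 0.238), or −0.01 (adjusted p = 0.937) without that library, in CD201+CD48+ against CD201− cells.

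Among the elongation factors only some genes passed. Eef1a1, which encodes the tRNA carrier eEF1A and had the highest level per kilobase of exon among the 57 genes in all 3 populations (chromosome 9, 78478453 to 78481724), stood at 4924, 5005 and 5037 CPM in the CD201+CD48− libraries, 5057, 5269 and 5471 CPM in the CD201+CD48+ libraries and 5554, 5350.2 and 4929.9 CPM in the CD201− libraries. The CD201− libraries overlapped both CD201+ populations. For Eef1a1 the log2 fold change was −0.08 ± 0.09 (adjusted p = 0.502) in CD201+CD48− and 0.00 ± 0.09 (adjusted p = 0.983) in CD201+CD48+ cells against CD201− cells. The genes of its exchange factor eEF1B were lower: Eef1d gave −0.57 ± 0.09 (adjusted p = 0.000131), Eef1g gave −0.42 ± 0.10 (adjusted p = 0.00299) and Eef1b2 gave −0.40 ± 0.12 (adjusted p = 0.0157) in CD201+CD48− against CD201− cells. The value of Eef1b2 without CD201− replicate 3 was −0.21 (adjusted p = 0.00185), and its call was lost with library sizes alone and without CD201+CD48− replicate 1. Of these Eef1d and Eef1g also passed in CD201+CD48+ against CD201− cells. The call of Eef1g there, at −0.29 ± 0.10 (adjusted p = 0.0419), was lost in 10 of 17 alternative fits, and without CD201− replicate 3 it was −0.15 (adjusted p = 0.0265). Eef1e1, which despite its symbol encodes a part of the complex that holds several tRNA synthetases (chromosome 13, 38645691 to 38659028), stood at 16.1, 20.5 and 19.04 CPM in the CD201+CD48− libraries, 19.99, 20.98 and 20.4 CPM in the CD201+CD48+ libraries and 30.99, 32.7 and 30.7 CPM in the CD201− libraries. Both CD201+ populations lay well below the CD201− libraries. For Eef1e1 the log2 fold change was −0.78 ± 0.12 (adjusted p = 8.67e-05) in CD201+CD48− and −0.62 ± 0.12 (adjusted p = 0.000964) in CD201+CD48+ cells.

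Eef2, the translocation factor (chromosome 10, 81176631 to 81182509), stood at 3049, 2963 and 2997 CPM in the CD201+CD48− libraries, 2997, 2746 and 2877 CPM in the CD201+CD48+ libraries and 3279, 3338 and 3193 CPM in the CD201− libraries. Its CD201− libraries were above all CD201+ libraries by a narrow margin, and the log2 fold change, −0.12 ± 0.09 (adjusted p = 0.258) in CD201+CD48− and −0.19 ± 0.09 (adjusted p = 0.117) in CD201+CD48+ cells against CD201− cells, did not pass. Without CD201− replicate 3 it passed in both, at −0.14 (adjusted p = 0.0303) and −0.20 (adjusted p = 0.00359). Eef2k, the kinase that switches eEF2 off by phosphorylation (chromosome 7, 120842642 to 120907219), was the one factor gene that was higher, and stood at 134, 125 and 136 CPM in the CD201+CD48− libraries, 126, 122 and 125 CPM in the CD201+CD48+ libraries and 115, 107 and 113 CPM in the CD201− libraries. The CD201+CD48− libraries lay above all CD201− libraries. For Eef2k the log2 fold change was 0.24 ± 0.07 (adjusted p = 0.0118). In CD201+CD48+ against CD201− cells the log2 fold change was 0.16 ± 0.07 (adjusted p = 0.111), which did not pass. Its call was lost with no count filter, without CD201+CD48− replicate 3 and without CD201− replicate 2 (adjusted p from 0.000296 to 0.0548 over 17 alternative fits). The methyltransferase genes Eef1akmt1 and Eef2kmt, whose products modify eEF1A and eEF2, gave 0.00 ± 0.15 (adjusted p = 0.999) and −0.17 ± 0.14 (adjusted p = 0.342) in CD201+CD48− against CD201− cells.

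Several factors are encoded by a pair of related genes, and in 6 of the 7 pairs examined one gene was lower in the CD201+CD48− than in the CD201− cells while the other did not pass. Among these is Eif4ebp1 with Eif4ebp2, of which both were lower without CD201− replicate 3 (Eif4ebp2 at −0.47, adjusted p = 0.000349). Eif1a and Eif1ax, a related pair left out of the 7, were both lower in CD201+CD48− against CD201− cells. The pairs were chosen after the values were seen, so their ratios are a description with no test, and a ratio within a library does not depend on how libraries are scaled. Counts of Eif4a1 over those of Eif4a2, the genes for related eIF4A helicases, gave ratios of 0.949, 0.954 and 0.925 in the CD201+CD48− libraries, 1.03, 1.04 and 1.07 in the CD201+CD48+ libraries and 1.24, 1.25 and 1.26 in the CD201− libraries. No populations overlapped, and Eif4a1 had fewer counts than Eif4a2 in every CD201+CD48− library and more in every CD201− library. These counts were not scaled for transcript length. The share of transcript sequence found in other annotated genes also differs, at 65.9% for Eif4a1 and 24.2% for Eif4a2. The ratios therefore do not show which of these messages was the more abundant in a population. The counts of Eif5a over Eif5a2 gave ratios of 35.4, 39.1 and 48.2 in the CD201+CD48− libraries, 52.7, 51.03 and 51.7 in the CD201+CD48+ libraries and 69.3, 90.5 and 65.1 in the CD201− libraries. Again no populations overlapped, although Eif5a2 averaged only 13.6 ± 1.99 CPM in the CD201+CD48− libraries, 11.1 ± 0.659 CPM in the CD201+CD48+ libraries and 10.8 ± 1.93 CPM in the CD201− libraries.

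On the log2 scale the ratio of Eif2s3x to Eif2s3y was 1.12 ± 0.06 in the CD201+CD48− libraries, 1.28 ± 0.22 in the CD201+CD48+ libraries and 1.66 ± 0.08 in the CD201− libraries (SD, n = 3 each). The CD201− libraries were above both CD201+ populations, which overlapped each other. For Eif4e over Eif4e2, whose product binds the cap but represses translation, the log2 ratio was 0.02 ± 0.09 in the CD201+CD48− libraries, 0.28 ± 0.07 in the CD201+CD48+ libraries and 0.54 ± 0.16 in the CD201− libraries. No populations overlapped in that ratio, and it was highest in CD201− cells. For Eif4g1 over Eif4g3 the log2 ratio was 1.14 ± 0.03 in the CD201+CD48− libraries, 1.16 ± 0.10 in the CD201+CD48+ libraries and 1.40 ± 0.03 in the CD201− libraries, and the CD201+ populations overlapped each other alone. For Eif4ebp1 over Eif4ebp2 it was 1.41 ± 0.27 in the CD201+CD48− libraries, 1.70 ± 0.12 in the CD201+CD48+ libraries and 1.89 ± 0.25 in the CD201− libraries, with overlap between all but CD201+CD48− and CD201− cells. The log2 ratio of Eif1 to Eif1b was 2.44 ± 0.23 in the CD201+CD48− libraries, 2.79 ± 0.16 in the CD201+CD48+ libraries and 2.83 ± 0.20 in the CD201− libraries, with overlap in every pairing.

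**Figure D4:**
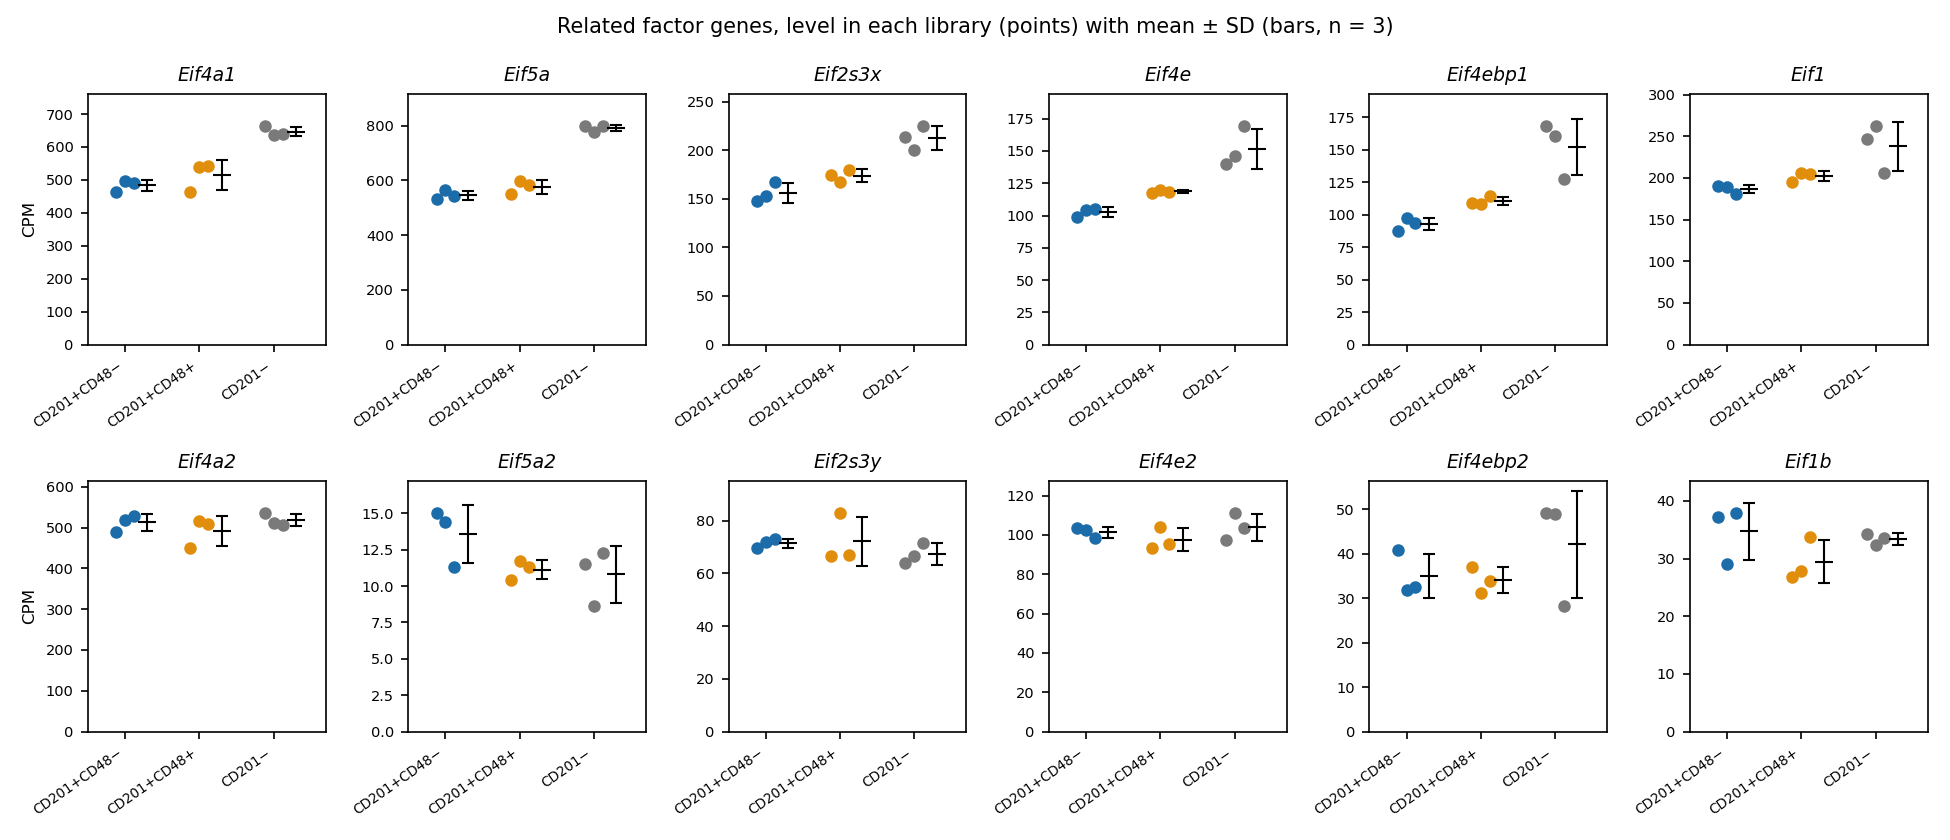
Level of 6 pairs of related factor genes (one pair per column) in each library (points, CPM from 0) with mean and SD of each population (bars, n = 3). In the upper row the CD201− libraries are higher on average than both CD201+ populations, and in the lower row the populations overlap.

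Between the CD201+ populations the number of calls depended on 1 library of the third population, CD201− replicate 3. With all 9 libraries Eif1ad and Eif2b1 passed, 3.51% of the 57 genes, against 6.31% of all tested genes lower. Without CD201− replicate 3 there were 17 lower and 0 higher, with 14.5% of all tested genes lower and 15.4% higher. The 15 added genes included Eif2s1 (−0.20 (adjusted p = 0.0197)), Eif3b (−0.17 (adjusted p = 0.00672)), Eif4e (−0.22 (adjusted p = 0.00782)) and Eif5 (−0.24 (adjusted p = 0.000121)), given as log2 fold change in CD201+CD48− against CD201+CD48+ cells. Fitted with the 2 CD201+ populations alone there were 16 lower, with 13.7% of all tested genes lower. In 44 of the 57 genes the log2 fold change in CD201+CD48− against CD201+CD48+ cells was negative whether or not it passed (77.2%), against 50.8% of all tested genes.

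Without CD201− replicate 3, all 35 genes that were lower in the CD201+CD48− than in the CD201− cells stayed lower and Eef2, Eif4ebp2 and Eif4h joined them, with 26.0% of all tested genes lower. In CD201+CD48+ against CD201− cells 32 were then lower, 26 of them among the 27 with all libraries, with 17.9% of all tested genes lower. The factor genes that stood out in that library were Eif5b, at 2.10-fold the mean of the other CD201− replicates, Eif4e3 at 1.99-fold, Eif2s2 at 1.90-fold, Eif3a at 1.65-fold and Eif3g at 1.59-fold. Eif4ebp2 lay as far on the other side, at 0.579 of that mean.

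Genes that work next to the factors were counted in lists taken from general knowledge. Of all tested genes 23.9% were lower in CD201+CD48− against CD201− cells, 14.3% in CD201+CD48+ against CD201− cells and 6.31% in CD201+CD48− against CD201+CD48+ cells. Without CD201− replicate 3 the shares of all tested genes were 26%, 17.9% and 14.5% lower, and 25.6%, 18% and 15.4% higher. Of the 9 tested genes for eIF2 kinases and the eIF2 phosphatase, the switch that decides how much active eIF2 there is, 4 were lower in the CD201+CD48− than in the CD201− cells, 2 in CD201+CD48+ than in the CD201− cells and 0 in CD201+CD48− than in CD201+CD48+ cells. They were phosphatase genes, such as Ppp1ca (log2 fold change −0.55 ± 0.09 (adjusted p = 8.47e-05) in CD201+CD48− against CD201− cells) and Ppp1r15b (−0.45 ± 0.07 (adjusted p = 0.000127)). None of the 4 kinase genes passed with all libraries, where by edgeR's test 0 of them had an unadjusted p under 0.05. With CD201− replicate 3 left out the list had 5 lower and 1 higher in CD201+CD48− against CD201− cells, 4 lower and 2 higher in CD201+CD48+ against CD201− cells, and 1 lower and 1 higher in CD201+CD48− against CD201+CD48+ cells. The added calls included the kinase genes Eif2ak2, which encodes PKR, a sensor of double-stranded RNA (0.43 (adjusted p = 1.84e-06) in CD201+CD48− and 0.35 (adjusted p = 0.000121) in CD201+CD48+ against CD201− cells), and Eif2ak3, which encodes PERK of the endoplasmic reticulum (−0.31 (adjusted p = 0.00808) and −0.34 (adjusted p = 0.00438) in the same comparisons). ATF4, whose translation rises when eIF2 is phosphorylated, and its target genes for amino acid supply and one-carbon metabolism were mostly lower in the CD201+ populations. Of 19 tested genes 16 were lower in the CD201+CD48− than in the CD201− cells (median log2 fold change −0.95), 16 in CD201+CD48+ than in the CD201− cells (median −0.76) and 8 in CD201+CD48− than in CD201+CD48+ cells (median −0.18), and 0 were higher in any with all libraries. Atf3 was higher in CD201+CD48− than in the CD201− cells without CD201− replicate 3, at 1.39 (adjusted p = 0.0253). Examples of the lower genes were Mthfd2, an enzyme of mitochondrial folate metabolism (−1.26 ± 0.08 (adjusted p = 5.17e-09)), Asns, asparagine synthetase (−1.16 ± 0.07 (adjusted p = 9.35e-09)), and Shmt2, mitochondrial serine hydroxymethyltransferase (−1.20 ± 0.08 (adjusted p = 9.78e-09)), all in CD201+CD48− against CD201− cells.

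The cytosolic aminoacyl-tRNA synthetases, which charge the tRNAs that eEF1A delivers and many of which are also ATF4 targets, were lower for 21 of 23 tested genes in CD201+CD48− against CD201− cells (median log2 fold change −0.67), 18 of 23 in CD201+CD48+ against CD201− cells (median −0.41) and 9 of 23 in CD201+CD48− against CD201+CD48+ cells (median −0.22), and none was higher with all libraries. In the same comparisons 23.9%, 14.3% and 6.31% of all tested genes were lower, or 26%, 17.9% and 14.5% without CD201− replicate 3. The synthetase counts were 19, 19 and 15 of 23 without CD201− replicate 3, and Qars was higher in CD201+CD48− than in the CD201− cells, at 0.20 (adjusted p = 0.0215). Gars, the glycine enzyme, stood at 272, 304 and 277 CPM in the CD201+CD48− libraries, 367, 361 and 353 CPM in the CD201+CD48+ libraries and 598, 629.8 and 587 CPM in the CD201− libraries. No populations overlapped. For Gars the log2 fold change was −1.09 ± 0.08 (adjusted p = 2.22e-08) in CD201+CD48− and −0.75 ± 0.08 (adjusted p = 3.96e-06) in CD201+CD48+ cells against CD201− cells. Iars and Nars, the isoleucine and asparagine enzymes, gave −0.86 ± 0.08 (adjusted p = 2.98e-07) and −1.12 ± 0.10 (adjusted p = 3.8e-07) in CD201+CD48− against CD201− cells, whereas Qars and Vars, for glutamine and valine, did not pass in any comparison with all libraries.

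The list of mTORC1 and cap-binding signalling, the pathway that releases eIF4E from its binding proteins, had shares in either direction near those of all tested genes. Of 16 tested genes 3 were higher and 4 lower in CD201+CD48− against CD201− cells, 3 were higher and 3 lower in CD201+CD48+ against CD201− cells, and 1 was higher and 0 lower in CD201+CD48− against CD201+CD48+ cells. That is 18.8% higher and 25% lower in the first comparison, against 24.2% and 23.9% of all tested genes. With library sizes alone the first comparison gave 7 higher and 1 lower, against 34.2% higher and 14.5% lower of all tested genes. Deptor, an inhibitor bound to mTOR, stood at 75.2, 71.5 and 71.3 CPM in the CD201+CD48− libraries, 60.1, 63.5 and 61.2 CPM in the CD201+CD48+ libraries and 38.3, 35.9 and 35.3 CPM in the CD201− libraries. Its log2 fold change was 0.99 ± 0.09 (adjusted p = 2.31e-07) in CD201+CD48− and 0.75 ± 0.09 (adjusted p = 1.18e-05) in CD201+CD48+ cells against CD201− cells, with no overlap against CD201− cells. Pdcd4, which holds the eIF4A helicase, was higher in CD201+CD48− than in the CD201− cells, at 0.38 ± 0.08 (adjusted p = 0.000917). Larp1, which binds messages with a terminal pyrimidine tract, was lower, at −0.63 ± 0.08 (adjusted p = 6.24e-06). Mtor itself gave 0.05 ± 0.08 (adjusted p = 0.618) in the same comparison. Mknk1, a kinase of eIF4E, was the single gene to pass in CD201+CD48− against CD201+CD48+ cells, at 0.35 ± 0.11 (adjusted p = 0.0387). There were 3 without CD201− replicate 3.

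In the lists that follow, the share of all tested genes was 23.9% lower in CD201+CD48− against CD201− cells, 14.3% lower in CD201+CD48+ against CD201− cells and 6.31% lower in CD201+CD48− against CD201+CD48+ cells. Partners of poly(A) tails and caps had 6 of 12 genes lower and 0 higher in CD201+CD48− against CD201− cells, 5 lower and 1 higher in CD201+CD48+ against CD201− cells, and 0 in CD201+CD48− against CD201+CD48+ cells. The helicase gene Ddx3x gave −0.64 ± 0.09 (adjusted p = 2.78e-05) and Pabpc4, a poly(A)-binding protein gene, −0.67 ± 0.13 (adjusted p = 0.000813) in CD201+CD48− against CD201− cells. Termination, recycling and other elongation factors had 6 of 11 lower and 1 higher (Gtpbp2) in that comparison, 5 lower and 0 higher in CD201+CD48+ against CD201− cells, and 0 in CD201+CD48− against CD201+CD48+ cells. They included the release factor genes Etf1 (−0.72 ± 0.09 (adjusted p = 7.92e-06)) and Gspt1 (−0.68 ± 0.10 (adjusted p = 7e-05)) and the recycling gene Abce1 (−0.54 ± 0.07 (adjusted p = 2.63e-05)). The enzymes that put diphthamide on eEF2 and hypusine on eIF5A had 4 of 9, 2 of 9 and 1 of 9 lower in CD201+CD48− against CD201− cells, CD201+CD48+ against CD201− cells and CD201+CD48− against CD201+CD48+ cells. Those that passed were diphthamide genes, such as Dph5 (−0.59 ± 0.12 (adjusted p = 0.00107)). The hypusine genes Dhps and Dohh passed as well without CD201− replicate 3 in CD201+CD48− against CD201− cells, at −0.49 (adjusted p = 0.0124) and −0.41 (adjusted p = 0.00816), and Dph5 no longer passed in CD201+CD48+ against CD201− cells, at −0.21 (adjusted p = 0.0858). Factors of mitochondrial translation had 3 of 10, 2 of 10 and 0 of 10 lower in the same comparisons, with Gfm1, a mitochondrial elongation factor, at −0.67 ± 0.11 (adjusted p = 0.00014) in CD201+CD48− against CD201− cells. The shares of this last list lie near those of all tested genes. When CD201− replicate 3 was left out, Gtpbp2 no longer passed (0.21 (adjusted p = 0.0738)), Gspt2 was higher (0.50 (adjusted p = 0.0124)), and Paip2, a binder of the poly(A)-binding protein, was higher (0.21 (adjusted p = 0.00708)), all in CD201+CD48− against CD201− cells. Lower in CD201+CD48− than in CD201+CD48+ cells were then 3 poly(A) and cap partners, 3 termination and recycling genes and 1 mitochondrial gene.

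**Figure D5:**
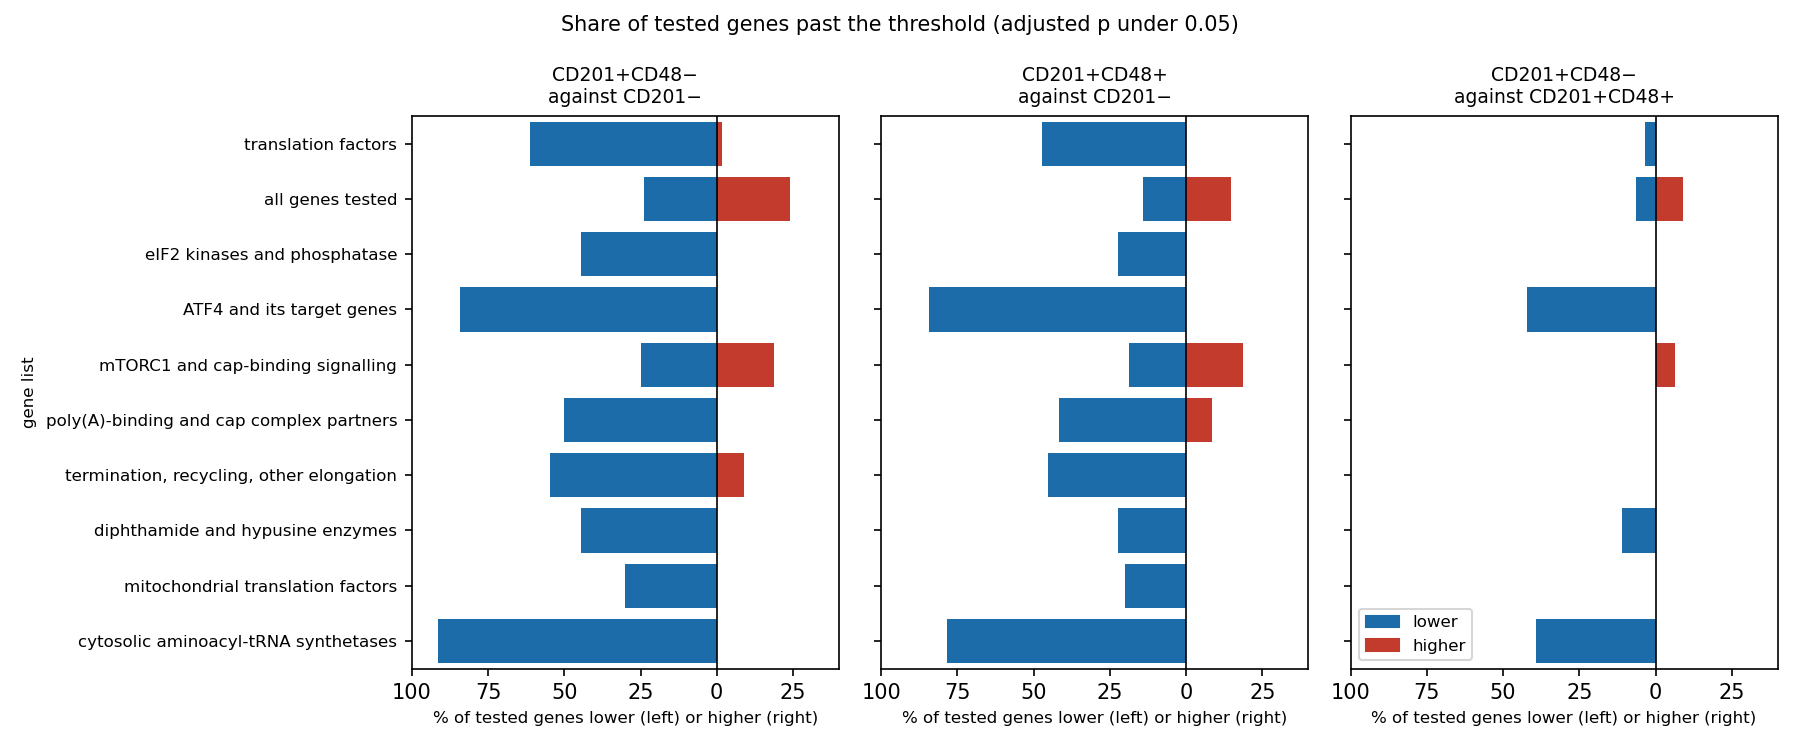
Share of tested genes that were lower (blue, drawn to the left) or higher (red, drawn to the right) at an adjusted p under 0.05, for the translation factors, for all tested genes and for the 8 neighbouring lists, in the 3 comparisons. The aminoacyl-tRNA synthetases and the ATF4 list have a larger share lower than the factors themselves, and the mTORC1 list has genes in both directions.

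Promoters were read because many translation factor genes are known targets of MYC, whose usual site is the E-box CACGTG, which reads the same on both strands. Windows from 250 bases before to 50 bases after an annotated start (RefSeq, GRCm38.p6) were at hand for 47 of the 62 genes, in some with several starts. The E-box was in 12 of the 47 genes (25.5%), against 8.09% of 27025 genes in the same table. The windows below, written on the strand of the gene, show it in capitals with the bases around it, for the eIF4F genes and for others that were lower (Eif5a, Eif3a), that did not pass (Eef2, Eif5a2) and that were higher (Eef2k) in CD201+CD48− against CD201− cells. They lie at Eif4e (chr3:138527192-138527221, plus strand), Eif4g1 (chr16:20672730-20672759, plus strand), Eif4a1 (chr11:69672595-69672624, minus strand), Eif5a (chr11:69921443-69921472, minus strand), Eif3a (chr19:60790654-60790683, minus strand), Eef2 (chr10:81176576-81176605, plus strand), Eif5a2 (chr3:28781148-28781177, plus strand) and Eef2k (chr7:120842788-120842817, plus strand).
Eif4e: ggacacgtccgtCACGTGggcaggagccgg
Eif4g1: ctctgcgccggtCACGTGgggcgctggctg
Eif4a1: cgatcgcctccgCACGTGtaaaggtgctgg
Eif5a: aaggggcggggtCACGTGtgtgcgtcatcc
Eif3a: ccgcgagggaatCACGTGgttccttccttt
Eef2: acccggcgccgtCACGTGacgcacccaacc
Eif5a2: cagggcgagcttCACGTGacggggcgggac
Eef2k: cccggggacggcCACGTGagcccgggcgtg
Of the 12 tested genes with the E-box, 5 were lower and 1 higher in CD201+CD48− against CD201− cells, with a median log2 fold change of −0.17. Of the 33 tested genes whose windows lacked it, 22 were lower, with a median of −0.40. A run of C followed by at least 4 pyrimidines within 5 bases of the annotated start, the form of a terminal oligopyrimidine (TOP) tract, was in 10 of the 47 genes (21.3%), against 15.6% of all. It was in 5 of the 27 that were lower and in 4 of the 17 that did not pass. The run was not found in the windows of Eef2 and Eef1b2, both textbook TOP messages, so these shares do not measure TOP status. A match to letters is not evidence that a factor binds there.

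The 8 factor messages that are textbook TOP messages (Eef1a1, Eef1b2, Eef1d, Eef1g, Eef2, Eif3e, Eif3f and Eif3h, chosen after the values were seen) had 3 lower and 5 that did not pass in CD201+CD48− against CD201− cells, with a median log2 fold change of −0.20, or −0.14 without CD201− replicate 3.

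Some counts are less certain than others. Of the 57 tested genes 20 shared at least 20% of the 36-base stretches of their transcripts with other annotated genes, by GENCODE vM39 transcripts. The gene that shared most was a marked pseudogene for some, such as Eif4a-ps4 for Eif4a1, and not for others, such as Alg1 for Eef2kmt. The share was 67.1% for Eef1g, 65.9% for Eif4a1, 50.5% for Eif1, 40.03% for Eef1a1, 36.8% for Eif2s3x and 24.1% for Eif2s2, with the rule for such reads not given in the sources used here. It was 26.7% for Eif1ad and 25.2% for Eif2b1, the genes that passed between the CD201+ populations. In addition 26 of the 57 overlap another annotated gene on either strand, often a small nucleolar RNA in an intron (Eif3a, Eif5, Eef2, Eif4g1), and the use of strand is not stated. The 5 genes without a test were Eef1a2, the eEF1A gene of muscle and neurons, Eif4e1b, an eIF4E gene of oocytes, and Eif2c5, whose kind of symbol was an older name of Argonaute genes, each with 0 counts in all 9 libraries, Eif4ebp3 with 1 count in a CD201− library, and Eif3j2, a copy of Eif3j1, with 0 counts in every CD201+CD48− library, 2 or 3 in CD201+CD48+ libraries and 1 to 3 in CD201− libraries.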

How the data were processed

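Bulk RNA sequencing was done on 9 libraries, 3 of each sorted population. Over 5000 cells per population were sorted, SMARTer chemistry was used for cDNA, and paired reads of 36 nt were sequenced, per the labels' protocols. The authors deposited whole-number read counts per gene symbol, not normalized. The submitters' processing notes name the build mm10 and DESeq2, with no versions, with aligner, counting rule and strand use not given in the sources used here. The deposited tables hold 3 further columns that match no sample label and were not used. 1 component of the culture medium is not reported here.

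Genes were kept by filterByExpr of edgeR 4.0.16 (minimum count 10), scaled by TMM and tested with the robust quasi-likelihood F test in R 4.3.3, in a single fit of all 9 libraries whose only factor was the group. P-values were adjusted by Benjamini-Hochberg over the 11619 tested genes, with a threshold of 0.05. Standard errors were derived from the fold change and F. Total counts per library set the precision. The common biological coefficient of variation was 8.64%. DESeq2 1.42.0, limma-voom (limma 3.58.1), other scalings and filters, a replicate block and leaving out each library were tried. Figures used matplotlib 3.10.9.

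The genes and lists were chosen with earlier results of these data known. Values in every sample were taken from the 5 highest and 5 lowest genes called per comparison, the smallest and largest p per role group and the genes on sex chromosomes. Genes described as chosen after their values were seen fall outside this rule. Up to 3 genes per neighbouring list with the smallest p in a comparison were named, and a few others there (Qars, Vars, Mtor, Gtpbp2, and those named for a call that changed without CD201− replicate 3) after their values were seen. Positions and promoter windows came from RefSeq tables of GRCm38.p6, and symbols of all 62 genes matched. Exon lengths and shared 36-base stretches came from GENCODE vM39 on GRCm39, and no coordinates of that build are given.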

Additional observations from a re-analysis of the deposited data

How the results depend on the processing

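The 17 alternative fits gave 2907 log2 fold changes of single factor genes, of which 2728 kept their side of the threshold with the same sign or, where not called, a shift under 1 standard error. A further 90 were weaker and 72 stronger, 17 changed sign by more than that with no call in either fit, and 0 called values reversed. Of 160 alternative values for the counts, medians and shares of the factor genes, 22 moved by more than the tolerance. So did 162 of 1836 counts of single roles and neighbouring lists. Ratios of related genes were varied only by leaving out 1 library. With 3 libraries per group that cannot exceed their tolerance, the spread within groups, so it does not show how stable the ratios are. Library size scaling alone gave a median log2 fold change of −0.20 with 26 lower and 3 higher genes in CD201+CD48− against CD201− cells, and −0.14 with 15 lower and 2 higher in CD201+CD48+ against CD201− cells. Of all tested genes 14.5% were then lower and 34.2% higher in the former comparison, and 7.32% and 23.2% in the latter. With no count filter the comparisons gave 0 higher genes in CD201+CD48− against CD201− cells and 4 lower in CD201+CD48− against CD201+CD48+ cells. Fitting the compared groups alone gave 16 lower in the last comparison, where the estimate of spread no longer held the CD201− libraries. Leaving out 1 library at a time gave 31 to 39 lower and 0 to 1 higher in CD201+CD48− against CD201− cells (median −0.41 to −0.34), 21 to 32 lower and 0 higher in CD201+CD48+ against CD201− cells (median −0.28 to −0.24), and 0 to 17 lower and 0 higher in CD201+CD48− against CD201+CD48+ cells (median −0.13 to −0.07). Eif1ad and Eif2b1 each lost the last comparison's call in 3 of 17 alternatives. The share of counts in the 62 genes was 2.15%, 2.27% and 2.72% on TMM-scaled library sizes and 1.73%, 1.78% and 2.03% without Eef1a1, for CD201+CD48−, CD201+CD48+ and CD201− cells in turn. With the replicate number as a replicate block, 34 were lower and 1 higher in CD201+CD48− against CD201− cells, 24 lower in CD201+CD48+ against CD201− cells and 2 lower in CD201+CD48− against CD201+CD48+ cells. Of the same-number pairs, 0 of 9 had a correlation of deviations from the group mean over 0.1 (−0.113 to 0.0447). For 0 of 9 libraries was the own number the best match in both other groups. With 3 libraries per group, 1 of them the outlying CD201− replicate 3, this cannot show whether the numbers mark a shared culture or animal. The E-box share was 21.3% of the windows of these genes when only the bases before the start were read, against 22.95% with the whole window. The causes of these shifts were not tested. Having 3 libraries per group and counts under 20 CPM for genes such as Eef1akmt1, Eif5a2 and Eif4e3 limits what could be detected.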
